A study of Mus musculus with 14 samples.

Results

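Rn7s1, Rn7s2, Rn7sk, Rpph1 and Rmrp are short, stable noncoding RNAs that form the core of RNA-protein machines. The 5 genes were taken by name from the 45706 gene rows that both deposited expression tables share, and all 5 were found. The members were chosen by their abundance, as RNAs that took large shares of the fetal liver counts in these same libraries, so those levels are given as a description and carry no test. Whether differences between groups also entered that choice is not recorded, so the calls given here for the 5 genes are no independent support for a pattern. The name abundant held in fetal liver, where each of the 5 stood among the 43 highest rows of every library, and did not hold in LK cells, where no row of the 5 ranked above 977.

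All 5 RNAs are made by RNA polymerase III. Rn7s1 and Rn7s2 encode 7SL, the RNA scaffold of the signal recognition particle (SRP), which brings ribosomes that are making secreted or membrane proteins to the endoplasmic reticulum. Rn7sk encodes 7SK, which holds the kinase P-TEFb (Cdk9 with cyclin T) inactive together with Hexim proteins and so limits transcription elongation. Rpph1 is the catalytic RNA of RNase P, which trims the 5′ ends of transfer RNA precursors. Rmrp is the RNA of RNase MRP, a related enzyme with largely the same protein subunits that acts in ribosomal RNA processing, and in humans inherited RMRP mutations cause cartilage-hair hypoplasia.

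The sequences below show a motif of 7SK, and the letters that the RNase P and RNase MRP RNAs share. They come from the GENCODE M21 transcripts on GRCm38, and run 5′ to 3′. In Rn7sk, of which the first 100 of 331 bases are shown, capitals mark GATC, the DNA letters of the motif by which human 7SK binds HEXIM1. In Rpph1 (first 300 of 319 bases) and Rmrp (all 271 bases), capitals mark the 2 longest runs of letters that both hold, 9 bases each.
Rn7sk: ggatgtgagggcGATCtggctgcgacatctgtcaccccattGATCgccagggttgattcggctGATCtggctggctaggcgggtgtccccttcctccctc
Rpph1: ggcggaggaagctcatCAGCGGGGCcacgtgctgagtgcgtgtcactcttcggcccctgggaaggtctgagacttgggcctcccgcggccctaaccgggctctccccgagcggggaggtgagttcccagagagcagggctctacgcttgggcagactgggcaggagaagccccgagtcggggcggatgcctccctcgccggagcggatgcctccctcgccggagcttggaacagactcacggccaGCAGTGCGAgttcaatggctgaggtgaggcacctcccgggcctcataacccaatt
Rmrp: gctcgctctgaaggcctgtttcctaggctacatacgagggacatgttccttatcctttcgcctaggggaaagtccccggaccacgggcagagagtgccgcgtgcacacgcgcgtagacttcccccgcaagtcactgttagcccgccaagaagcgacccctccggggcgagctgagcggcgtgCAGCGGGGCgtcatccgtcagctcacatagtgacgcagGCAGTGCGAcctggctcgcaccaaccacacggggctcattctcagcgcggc

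Rn7s1 (ENSMUSG00000099021) and Rn7s2 (ENSMUSG00000099250), both on chromosome 12, were identical over all 300 bases. Reads of the pair therefore cannot be assigned to 1 gene by sequence, and their sum is the quantity to read. Rn7sk (ENSMUSG00000065037) lies at chr9:78175303-78175633, minus strand, and held GATC at bases 13, 42 and 64. Of 10943 GENCODE transcripts of 250 to 400 bases, 66.6% held GATC at least once and 9.31% at least 3 times on the transcript strand. Rpph1 (ENSMUSG00000092837, chr14:50807449-50807767, minus strand) overlaps Ccnb1ip1, annotated on the same strand, and lies 74 bases from Parp2 on the other. Rmrp (ENSMUSG00000088088, chr4:43492788-43493058, minus strand) overlaps Ccdc107, which lies on the other strand. Rpph1 and Rmrp were 51.7% identical in a global alignment, and neither held GATC, while Rn7s1 held it 4 times.

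The libraries came from mouse blood-forming cells with or without Prmt5, the gene of an arginine methyltransferase that places symmetric dimethylarginine. Fetal liver cells of day E14.5 were sorted on Ter119, an antigen of maturing erythroid cells, and gave 2 libraries in each of 4 groups. These were Ter119pos KO (PRMT5fl/fl; Vav-cre), Ter119pos WT (PRMT5fl/fl), Ter119neg KO (PRMT5fl/fl; Vav-cre) and Ter119neg WT (PRMT5fl/fl). LK cells, a sorted progenitor population, gave 3 libraries of KO (Mx1-cre; PRMT5fl/fl) and 3 of WT (PRMT5fl/fl), both from mice injected with poly(I:C) 7 days before collection. Vav-cre acts across the blood system and Mx1-cre is switched on by interferon, so both also act outside the sorted cells, and Mx1-cre outside blood. Mice 1 and 2 gave both KO fractions and mouse 4 gave WT library B of both fractions, while WT library A came from mouse 3 in Ter119neg and from mouse 5 in Ter119pos. The labels name no mice for LK, so p-values there measure only the spread between these libraries.

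Total counts were 19514550 to 30976961 per library. Prmt5 was lower in KO in all 3 populations, with log2 fold changes of -1.89 in Ter119pos, -3.57 in Ter119neg and -2.81 in LK (edgeR adjusted p of 2.31e-06, 1.45e-07 and 0.00669). Globin genes, which mark the erythroid cells that Ter119 selects, took 16.4% to 25.1% of counts in Ter119pos and at most 0.183% in Ter119neg. In LK the stem and progenitor markers, Kit and Cd34 among them, summed to 733 to 2101 CPM (counts scaled to 1e+06 per library). Both letter B libraries of LK stood apart from the other 4 of that population, with nuclear ribosomal RNA rows at 23.4% of counts in KO and 18.0% in WT, against at most 0.179%. Every count here is a share of what was sequenced, so in these bulk samples fewer cells with an RNA and less of it per cell cannot be told apart. Neither can a gain of one RNA be told from a loss of the rest.

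By share of counts, the 5 RNAs together came next after protein-coding genes in Ter119pos KO, Ter119neg KO and Ter119neg WT. In Ter119pos WT mitochondrial ribosomal RNA stood above them. Ribosomal RNA removal is named for the fetal libraries, so this is no rank among the RNAs of the cells. The share of the 5 RNAs was 35.9% and 34.6% in Ter119pos KO, against 6.08% and 6.20% in Ter119pos WT. In Ter119neg it was 27.6% and 31.4% in KO, against 16.7% and 23.3% in WT. Both KO libraries lay above both WT libraries in each fraction, and Ter119pos WT was the lowest of the 4 fetal groups. The mean shares were 35.2% ± 0.975 in Ter119pos KO and 6.14% ± 0.0791 in Ter119pos WT, and 29.5% ± 2.69 in Ter119neg KO and 20.0% ± 4.69 in Ter119neg WT (SD, n = 2 each), so the KO to WT ratio of the means was 5.74 in Ter119pos and 1.48 in Ter119neg.

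**Figure D1:**
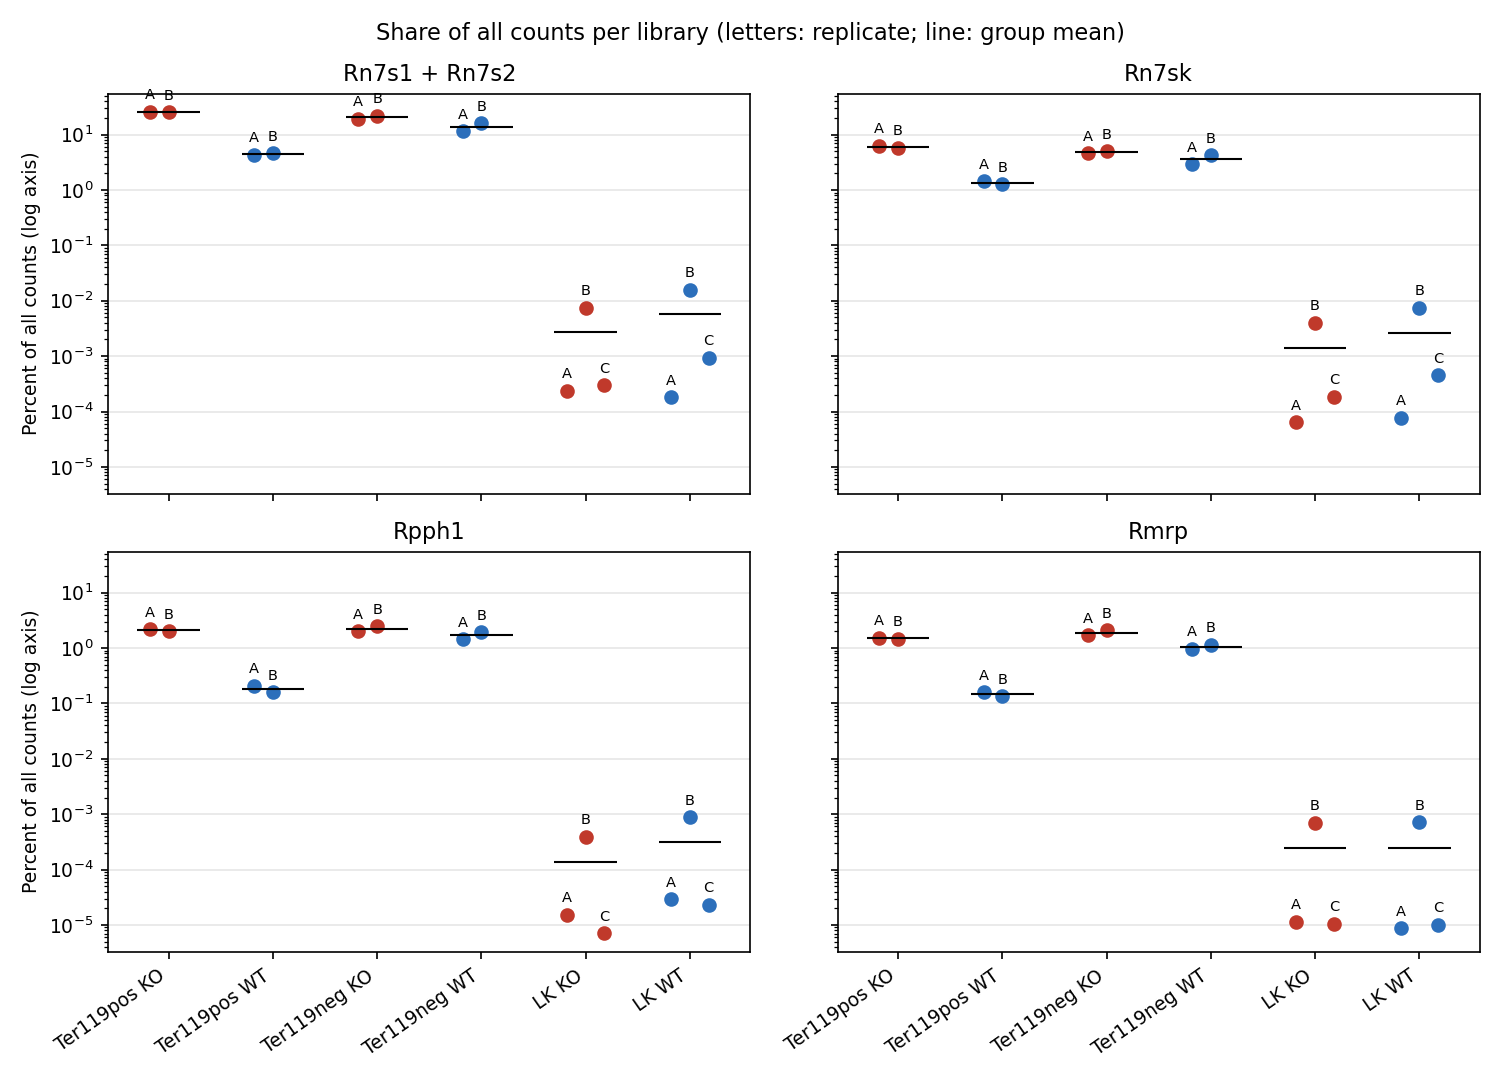
Share of all counts (percent, log axis) of the summed 7SL genes, Rn7sk, Rpph1 and Rmrp in each of the 14 libraries, with letters for replicates and lines for group means. In fetal liver each RNA lies between 0.134% and 25.9%, with Ter119pos WT lowest, and in LK each lies under 0.016%, with both B libraries highest.

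The 7SL RNA was the largest of these shares. Rn7s1 and Rn7s2 summed to 25.9% and 25.3% of counts in Ter119pos KO, against 4.28% and 4.63% in Ter119pos WT. In Ter119neg the sum was 19.3% and 21.9% in KO, against 11.4% and 15.99% in WT. In order, Ter119pos KO stood above Ter119neg KO, Ter119neg WT and Ter119pos WT, and no library of one group reached into the next. Split by gene, Rn7s1 held 53.5% to 57.6% of the pair in fetal libraries. Rn7s1 was the highest row of both Ter119pos KO libraries and the sixth highest in both Ter119pos WT libraries.

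Scaled with TMM, which sets libraries to a common level for the bulk of genes, the 7SL sum rose in Ter119pos KO, with 3.42 as log2 fold change (SE 0.364 and adjusted p = 6.55e-06 by edgeR). In Ter119neg the difference was 0.89 (SE 0.334, adjusted p = 0.0846). The KO effect was larger in Ter119pos by 2.53 log2 units (SE 0.476, adjusted p = 0.00116). With edgeR's newer dispersion estimate, an alternative added after the data were seen, the same values had adjusted p of 0.0879 in Ter119pos and 0.353 for the difference of effects. The separate rows Rn7s1 and Rn7s2 kept their Ter119pos calls with that estimate (3.36 and 3.48, adjusted p = 0.0209 and 0.0117), but not those of the difference of effects (2.49 and 2.57, adjusted p = 0.183 and 0.137).

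Rn7sk, the 7SK RNA, followed the same order of groups. It took 6.32% and 5.77% of counts in Ter119pos KO, against 1.43% and 1.27% in Ter119pos WT. In Ter119neg it took 4.61% and 4.99% in KO, against 2.90% and 4.23% in WT. The KO libraries again lay above the WT libraries in both fractions, with a gap in Ter119neg that was smaller than that between the WT libraries. Its TMM-scaled log2 fold change was 3.05 in Ter119pos (SE 0.315, edgeR adjusted p = 5.08e-06) and 0.73 in Ter119neg (SE 0.293, adjusted p = 0.107). These effects differed by 2.32 (SE 0.417, adjusted p = 0.000846, or 0.0803 with the newer dispersion estimate).

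The ribozyme RNAs showed the widest ratio between KO and WT in Ter119pos. Rpph1 took 2.16% and 2.00% of counts in Ter119pos KO, against 0.208% and 0.158% in Ter119pos WT, a ratio of means of 11.4. In Ter119neg it took 2.01% and 2.45% in KO, against 1.43% and 1.94% in WT. Its level in Ter119pos KO thus lay within or just under the range of Ter119neg KO, and its level in Ter119pos WT lay far under every other fetal library. The log2 fold change of Rpph1 was 4.39 in Ter119pos (SE 0.326, edgeR adjusted p = 4.38e-07) and 0.71 in Ter119neg (SE 0.285, adjusted p = 0.107), with a difference of 3.68 (SE 0.414, adjusted p = 4.47e-05).

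Rmrp took 1.54% and 1.48% of counts in Ter119pos KO, against 0.160% and 0.134% in Ter119pos WT, a ratio of means of 10.2. In Ter119neg it took 1.68% and 2.09% in KO, against 0.964% and 1.14% in WT. No KO library overlapped a WT library of the same fraction. The log2 fold change was 4.25 in Ter119pos (SE 0.293, edgeR adjusted p = 2.85e-07), 1.16 in Ter119neg (SE 0.26, adjusted p = 0.00882) and 3.09 for the difference of effects (SE 0.371, adjusted p = 6.29e-05). The Ter119neg call was lost without Ter119neg KO library B (0.81, adjusted p = 0.073), without Ter119neg WT library A (0.93, adjusted p = 0.0694) and with the newer dispersion estimate (adjusted p = 0.0745).

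Because Rn7s1 and Rn7s2 are identical, the counts of called rows that follow hold 7SL more than once. Read against all genes tested, 5 of 5 rows were called in Ter119pos, all higher in KO. In that comparison 54.2% of 15566 genes were called and 24.8% called higher. Depending on the RNA, 1.5% to 3.58% of tested genes had a higher log2 fold change there. In Ter119neg 1 of 5 was called, Rmrp, higher in KO, where 19.1% of genes were called and 9.57% called higher. DESeq2, run as an alternative, called 5 of 5 higher there (adjusted p of 2.50e-07 to 0.0139), where it called 14.4% of genes and 6.42% higher. For the difference of the KO effect between fractions 5 of 5 were called, all with the larger rise in Ter119pos, where 41.7% of genes were called and 19.3% called in that direction. A trend of fold change with transcript length, removed per library, took part of these values away. With it removed the log2 fold changes in Ter119pos were 1.85 for the 7SL sum, 1.58 for Rn7sk, 2.88 for Rpph1 and 2.58 for Rmrp, all still called, and that of Rmrp in Ter119neg was 0.55 (edgeR adjusted p = 0.0781).

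Scaling also set the size of these differences. By library totals alone the median log2 fold change of all tested genes was -0.93 in Ter119pos and -0.30 in Ter119neg, against -0.04 and 0.01 with TMM. On that scale, the share of all counts, the log2 fold changes in Ter119pos were 2.52 for the 7SL sum, 2.16 for Rn7sk, 3.51 for Rpph1 and 3.36 for Rmrp. In Ter119neg they were 0.59, 0.43, 0.40 and 0.84 in the same order of genes. The 4 values thus kept their direction in both fractions on both scales.

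**Figure D2:**
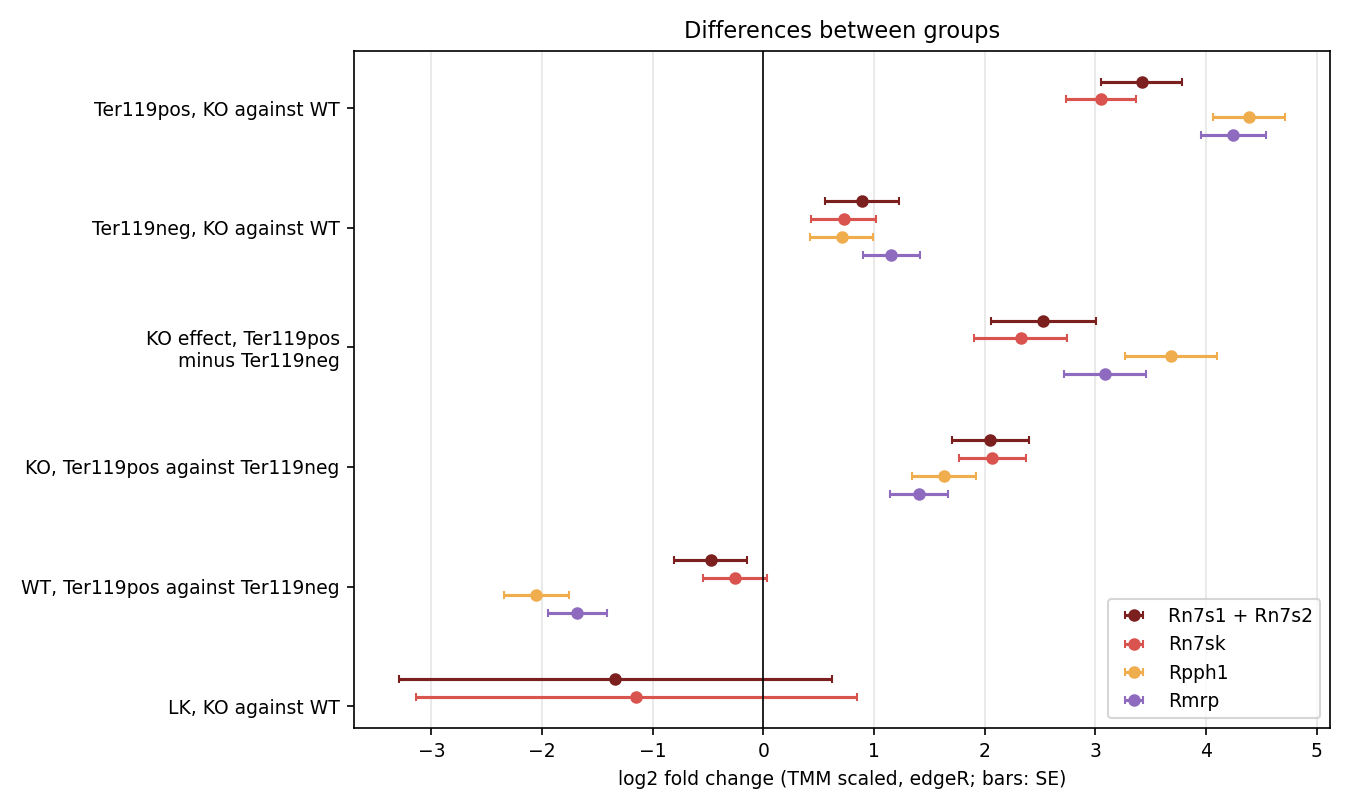
TMM-scaled log2 fold changes (x axis, bars give the SE from edgeR) of the summed 7SL genes, Rn7sk, Rpph1 and Rmrp for the 6 comparisons down the page. The values for KO against WT in Ter119pos, 3.05 to 4.39, lie right of those in Ter119neg, 0.71 to 1.16, and the LK bars reach across 0.

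Between the fractions of WT, the ribozyme RNAs were called on the TMM scale, while the 7SL sum and 7SK were not. Differences between the RNAs were not tested. Within WT, Rpph1 and Rmrp were lower in Ter119pos than in Ter119neg, with log2 fold changes of -2.05 (SE 0.295, edgeR adjusted p = 3.97e-05) and -1.68 (SE 0.263, adjusted p = 8.40e-05). The 7SL sum was at -0.48 (SE 0.332, adjusted p = 0.205) and Rn7sk at -0.26 (SE 0.291, adjusted p = 0.432). Thus 2 of 5 rows, with Rn7s1 and Rn7s2 counted apart, were called, both lower, where 76.3% of genes were called and 40.4% called lower. With the mouse as a block, the WT value is the single difference within mouse 4 and has no spread between WT mice. That fit gave -0.78 for the sum, -0.73 for Rn7sk, -0.72 for Rn7s1 and -0.85 for Rn7s2. No p is given for it. By library totals alone, all tested genes had a median of -1.35 in this comparison, and the 7SL sum stood at -1.62 and was called.

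Within KO all 5 rows were higher in Ter119pos than in Ter119neg on the TMM scale, where 62.6% of genes were called and 30.3% called higher. The log2 fold changes were 2.05 for the 7SL sum (SE 0.344, edgeR adjusted p = 0.000215), 2.07 for Rn7sk (SE 0.303, adjusted p = 6.98e-05), 1.63 for Rpph1 (SE 0.291, adjusted p = 0.000346) and 1.41 for Rmrp (SE 0.261, adjusted p = 0.00047). None of these calls held by library totals alone, where all genes had a median of -1.86, the sum stood at 0.32 and Rn7sk at 0.33, and Rpph1 and Rmrp turned to -0.10 and -0.32. With the length trend removed Rpph1 and Rmrp stood at 0.36 and 0.04 and were not called. As plain shares, Rpph1 at 2.16% and 2.00% in Ter119pos KO overlapped its 2.01% and 2.45% in Ter119neg KO.

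The protein genes of the same machines were compared between the fractions as well, where 76.3% of all genes were called within WT, 40.4% lower. In WT, 8 of 12 rows for proteins of RNase P and RNase MRP were lower and 1 higher in Ter119pos than in Ter119neg, with a median log2 fold change of -0.84 against -0.19 for all genes. These 9 of 12 called are a share near the background, with more of them lower. Rpp40, a subunit of both enzymes, was at 0.333 and 0.905 CPM in Ter119pos WT against 14.1 and 10.7 in Ter119neg WT (-3.16, SE 0.328, edgeR adjusted p = 2.07e-06). Genes of the 7SK particle and P-TEFb went the other way on the TMM scale, with 5 of 7 higher and 1 lower and a median of 0.93 that turned to -0.23 by library totals, above the -1.35 of all genes. Hexim1 was at 42.2 and 41.5 CPM in Ter119pos WT against 22.3 and 20.6 in Ter119neg WT (2.13, SE 0.111, adjusted p = 3.69e-09). In KO, Hexim1 was at 10.6 and 10.04 CPM in Ter119pos against 14.8 and 11.98 in Ter119neg, so its direction in shares was the reverse of its TMM-scaled value of 1.38 (adjusted p = 6.17e-07).

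Per length of transcript, 7SL was the most abundant of the RNAs in every fetal group. In Ter119pos KO the mean levels were 853698 ± 14682 CPM per kilobase for the 7SL sum, 182633 ± 11587 for Rn7sk, 65253 ± 3504 for Rpph1 and 55680 ± 1446 for Rmrp. In Ter119pos WT they were 148626 ± 8282, 40789 ± 3482, 5741 ± 1111 and 5434 ± 688 CPM per kilobase in the same order of genes (SD, n = 2 each). The order of genes was the same in both, with Rpph1 and Rmrp within their spread of each other in Ter119pos WT. In Ter119neg KO the mean levels were 686181 ± 60754 CPM per kilobase for the 7SL sum, 145120 ± 8075 for Rn7sk, 69815 ± 9797 for Rpph1 and 69570 ± 10456 for Rmrp. In Ter119neg WT they were 456161 ± 108813, 107712 ± 28490, 52909 ± 11279 and 38819 ± 4572 CPM per kilobase in the same order of genes. There too 7SL and Rn7sk stood apart from the rest. The ranges of mean and SD of Rpph1 and Rmrp overlapped, but both RNAs were read in the same libraries. Within them, Rpph1 per Rmrp by counts, not divided by length, was 1.49 and 1.70 in Ter119neg WT. In Ter119neg KO it was 1.19 and 1.17.

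Ratios between the RNAs do not depend on the scaling of a library. The 7SL sum per Rn7sk count was 4.10 and 4.38 in Ter119pos KO, against 2.99 and 3.65 in Ter119pos WT. Per Rpph1 count it was 11.998 and 12.6 in Ter119pos KO, against 20.6 and 29.3 in Ter119pos WT. The first ratio was thus higher in KO and the second lower, without overlap, since Rpph1 differed most between the genotypes. In Ter119neg 7SL per Rn7sk was 4.18 and 4.38 in KO and 3.93 and 3.78 in WT, and 7SL per Rpph1 was 9.62 and 8.94 in KO and 7.94 and 8.23 in WT. Rpph1 per Rmrp lay between 1.17 and 1.70 in all 8 fetal libraries, with both Ter119neg WT libraries highest. Against mt-Rnr2, a mitochondrial ribosomal RNA that RNA polymerase III does not make, the 7SL sum stood at 2.56 and 2.08 in Ter119pos KO, against 0.373 and 0.372 in Ter119pos WT. No test was run on these ratios.

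**Figure D3:**
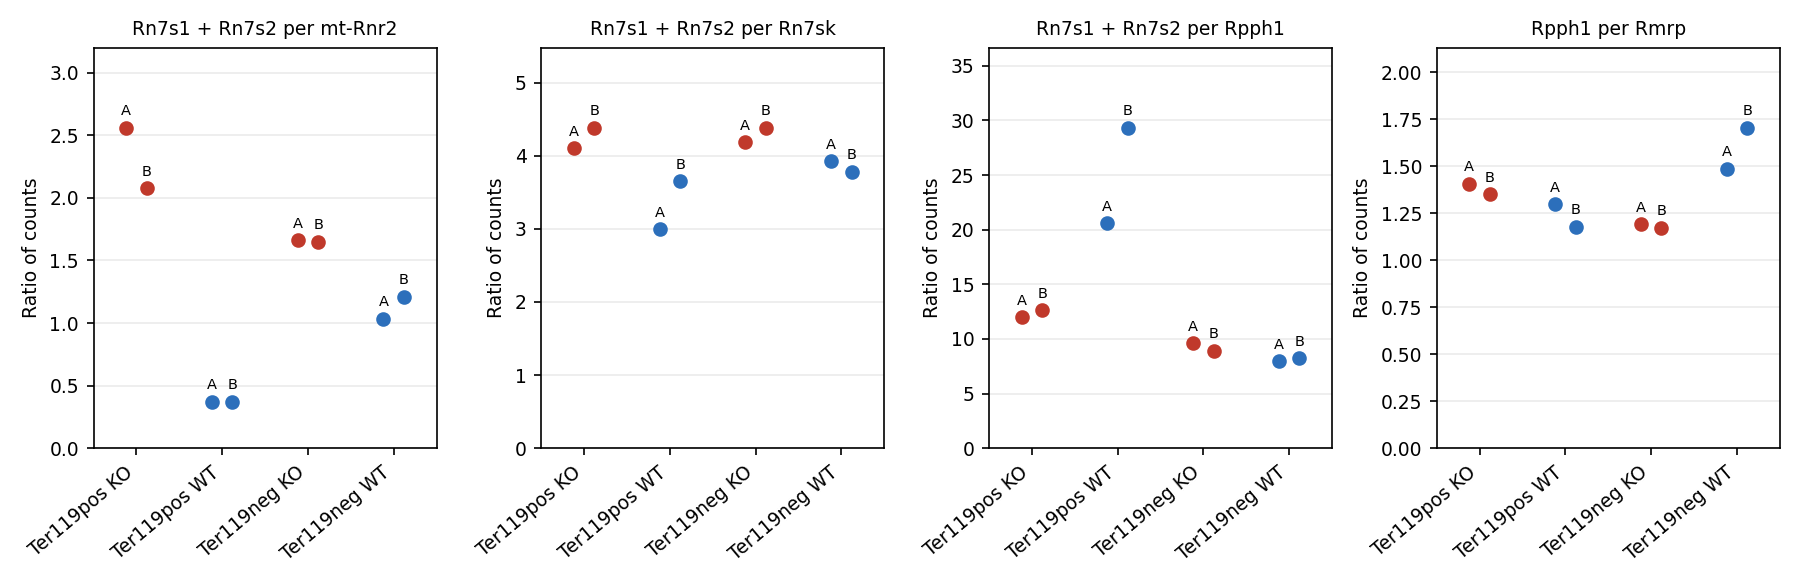
Ratios of counts (y axes start at 0) in the 8 fetal libraries, with letters for replicates and Ter119pos groups at the left of each panel. The 7SL sum per mt-Rnr2 is 2.08 and 2.56 in Ter119pos KO against 0.372 and 0.373 in Ter119pos WT, while Rpph1 per Rmrp stays between 1.17 and 1.70.

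Other small structured RNAs moved in the same libraries. Small nuclear RNA rows took 2.43% and 2.57% of counts in Ter119pos KO, against 0.506% and 0.540% in Ter119pos WT, and 2.33% and 2.14% in Ter119neg KO, against 1.00% and 1.28% in Ter119neg WT. Small nucleolar RNA rows took 1.74% and 1.77% in Ter119pos KO, against 0.531% and 0.521% in Ter119pos WT. As shares, globin genes stood the other way, at 16.4% and 18.3% of counts in Ter119pos KO against 25.1% and 24.6% in Ter119pos WT, but their TMM-scaled values had the opposite sign, with Hba-a1 at 0.20 and Hbb-bt at 0.41, and were not called. Protein-coding genes in all took 45.3% and 44.5% in Ter119pos KO against 76.2% and 75.7% in Ter119pos WT. Mitochondrial ribosomal RNA was at 11.3% to 15.6% in all 8 fetal libraries. The part of these shifts of library make-up in the levels of the 5 RNAs was not tested.

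**Figure D4:**
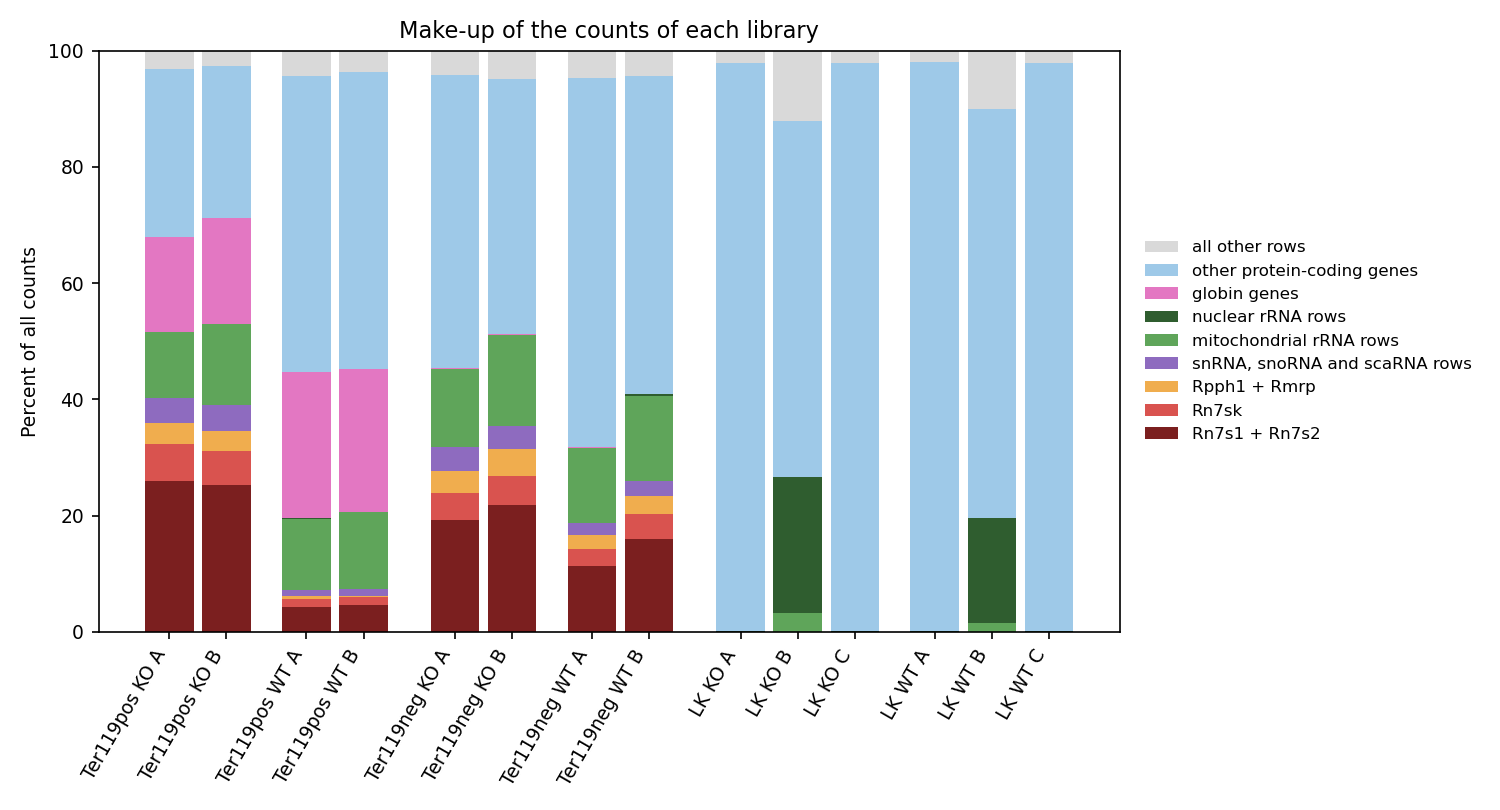
Make-up of the counts of each library (percent of all counts, stacked bars, KO left of WT within a population). The 5 RNAs fill 34.6% to 35.9% in Ter119pos KO and 6.08% to 6.20% in Ter119pos WT, and in LK they are too small to see, while nuclear ribosomal RNA fills 23.4% and 18.0% of the KO and WT B libraries.

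Markers of other cells are read here against the share of all genes called. In Ter119pos this was 54.2%, 24.8% higher and 29.3% lower in KO, and in Ter119neg 19.1%, 9.57% higher and 9.55% lower. The called shares of the macrophage and hepatoblast lists in Ter119pos were under that background. In Ter119pos the macrophage markers summed to 18.6 to 20.8 CPM in KO and to 32.7 to 53.9 CPM in WT, with 1 of 9 called higher and 3 lower. Hepatoblast markers summed to 27.0 to 34.4 CPM in KO and 27.1 to 35.5 CPM in WT, while on the TMM scale 3 of 8 were higher (Afp 1.07, Apoa1 1.26 and Apoa2 1.70) and none lower. Megakaryocyte markers summed to 12.7 to 15.7 CPM in KO and 15.8 to 18.4 CPM in WT, with 5 of 7 higher and 1 lower on the TMM scale. Granulocyte and monocyte markers summed to 13.5 to 32.8 CPM in KO and 79.5 to 144 CPM in WT, with 5 of 10 lower and none higher. In the lymphoid list Cd3e and Ms4a1 were at 0 in both. Slc4a1, the red cell anion exchanger, was called lower in Ter119pos KO, at 2413 and 1740 CPM in KO against 11170 and 10050 CPM in WT. It does not stand for the erythroid list, which had a median log2 fold change of 0.20 on the TMM scale. The TMM-scaled values of Hba-a1 and Hbb-bt, given above, were positive and not called. In Ter119neg macrophage markers summed to 40.4 to 55.1 CPM in KO and 225 to 247 CPM in WT, with 9 of 9 lower, and hepatoblast markers to 173 to 422 CPM in KO and 475 to 872 CPM in WT. The erythroid genes Alas2 (1.59), Hbb-bs (1.45) and Hba-a1 (1.33) were higher in Ter119neg KO (edgeR adjusted p of 0.000245, 0.0114 and 0.00833). The part of cell make-up in the fold changes of the 5 RNAs was not tested.

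Protein partners of the RNAs are read here against the 54.2% of all genes called in Ter119pos, 24.8% higher and 29.3% lower in KO. Of 9 measured SRP protein genes, 3 rose and 1 fell in Ter119pos KO, a share near that background, with a median log2 fold change of 0.06 that turned to -0.83 by library totals, against -0.04 and -0.93 over all genes. Srp14, which binds the Alu domain of 7SL, was at 19.4 and 21.6 CPM in KO against 15.9 and 18.5 in WT (log2 fold change 1.15, SE 0.137, edgeR adjusted p = 1.58e-05). Srp72 was called higher as well (1.06, adjusted p = 2.77e-05), and so was Srp9, the partner of Srp14 (0.55, adjusted p = 0.00353), although the share of Srp9 was lower at 14.6 and 14.1 CPM in KO against 17.2 and 19.1 in WT. Srpr, a subunit of the SRP receptor, fell (-0.51, adjusted p = 0.00401). In Ter119neg none of the 9 was called by edgeR, and at an unadjusted p under 0.05 it was Srpr alone (-0.32, adjusted p = 0.0775). DESeq2 called none of them either.

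Genes of the 7SK particle and of P-TEFb were lower in Ter119pos KO, with 6 of 7 called lower, where 29.3% of all genes were, none higher and a median log2 fold change of -0.83 by TMM and -1.71 by library totals. Ccnt2, a cyclin T, was at 25.4 and 17.8 CPM in KO against 110 and 111 in WT (-1.48, SE 0.121, edgeR adjusted p = 8.42e-07). Hexim1, which inhibits P-TEFb when bound to 7SK, was at 10.6 and 10.04 CPM in KO against 42.2 and 41.5 in WT (-1.13, SE 0.112, adjusted p = 3.72e-06). Larp7, which protects the 3′ end of 7SK, stood at -0.95 (SE 0.128, adjusted p = 4.39e-05). The 7SK RNA thus rose in the libraries in which these 6 genes fell. In Ter119neg 3 of 7 were lower by edgeR, which called 9.55% of all genes lower there, and 1 of 7 by DESeq2. The 3 were the kinase gene Cdk9 (-0.76, adjusted p = 0.000412), Hexim1 (-0.38, adjusted p = 0.035) and Mepce, the 7SK capping enzyme (-0.37, adjusted p = 0.0392). The KO effect was lower in Ter119pos than in Ter119neg for 4 of 7, with differences for Ccnt2 of -1.68, Ccnt1 of -0.89, Hexim1 of -0.75 and Larp7 of -0.71 (edgeR adjusted p from 2.45e-05 to 0.00612).

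Of 12 rows for proteins of RNase P and RNase MRP, 6 were higher and none lower in Ter119pos KO, where 24.8% of all genes were higher and 29.3% lower, with a median of 0.55 that turned to -0.35 by library totals, above the -0.93 of all genes. Pop7 (0.74, edgeR adjusted p = 0.000786) and Pop4 (0.67, adjusted p = 0.00568), subunits of both enzymes, were among them. Their shares overlapped or were lower in KO, with Pop7 at 5.70 and 5.28 CPM in KO against 5.95 and 6.19 in WT. Rpp25 had the largest value of the list (4.61, SE 0.757, adjusted p = 0.000224), from 0.809 and 1.20 CPM in KO against 0 and 0.151 CPM in WT. In Ter119neg none of the 12 was called, and at an unadjusted p under 0.05 they were Pop1 (-0.45), Rpp21 (-0.42) and Rpp25 (2.71), with none called by DESeq2.

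Among 26 genes of RNA polymerase III and its factors, 6 were higher and 8 lower in Ter119pos KO (median 0.02, or -0.87 by library totals), close to the 24.8% and 29.3% of all genes. Polr1c, a subunit shared by RNA polymerases I and III, was at 22.9 and 18.98 CPM in KO against 9.56 and 11.4 in WT (1.89, SE 0.11, edgeR adjusted p = 1.20e-07). Bdp1, a subunit of initiation factor TFIIIB, was at 16.1 and 13.2 CPM in KO against 64.3 and 73.0 in WT (-1.34, SE 0.102, adjusted p = 5.21e-07). Pou2f1, which binds promoters of the type found at Rn7sk, stood at -1.45 (SE 0.122, adjusted p = 1.03e-06). In Ter119neg 4 were higher and 3 lower, with Snapc4 (0.80, adjusted p = 0.00236), Polr1c (0.73, adjusted p = 0.000336) and Polr3b (0.48, adjusted p = 0.011) higher.

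**Figure D5:**
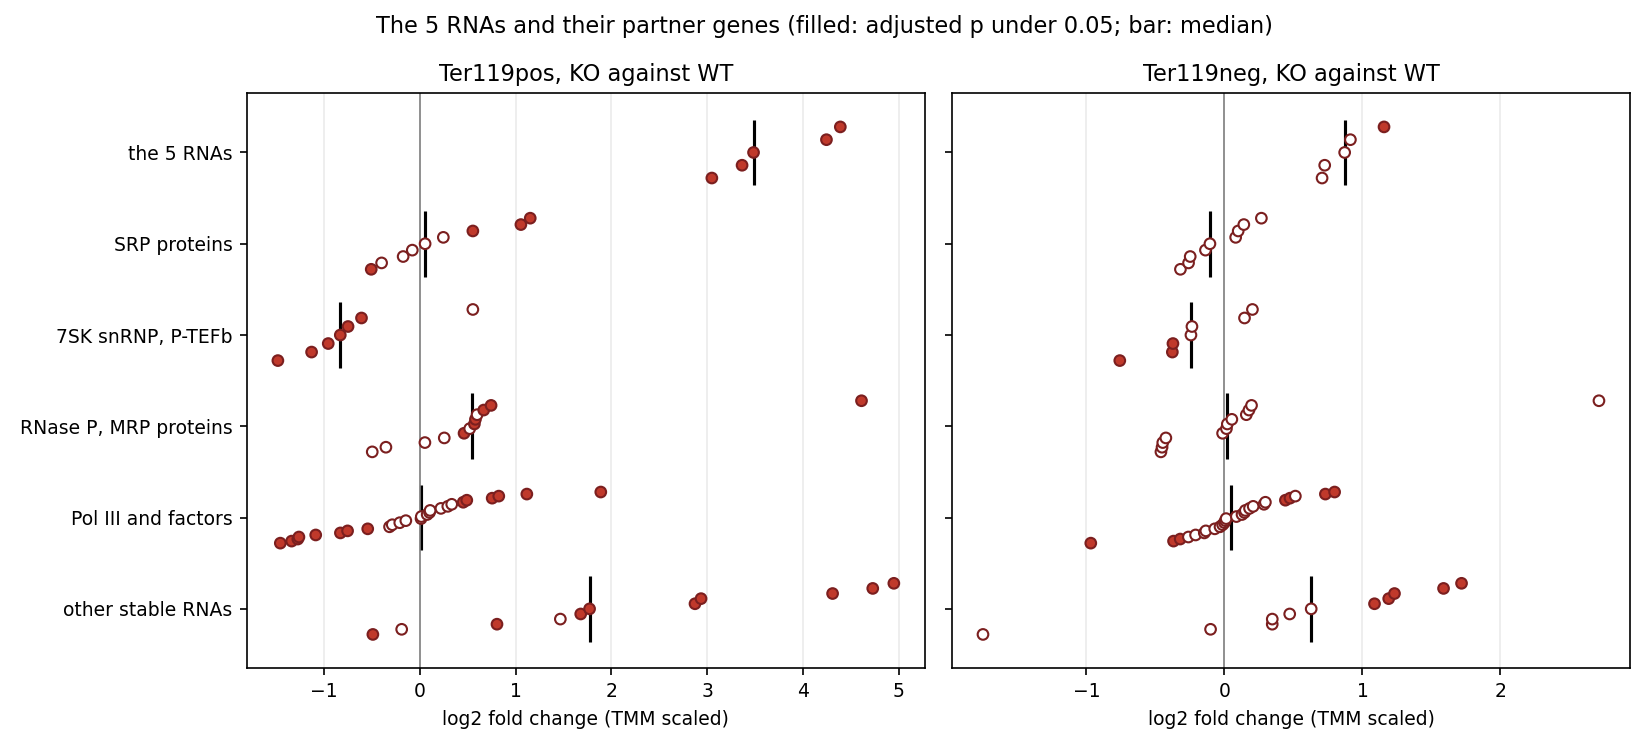
TMM-scaled log2 fold changes of KO against WT (x axis) for the 5 RNAs and for 5 lists of related genes, in Ter119pos (left) and Ter119neg (right), with filled points for an edgeR adjusted p under 0.05 and bars for list medians. In Ter119pos the 5 RNAs lie at 3.05 to 4.39, the 7SK and P-TEFb genes have a median of -0.83, and the other stable RNAs a median of 1.77.

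Further stable RNAs were tested beside the 5. Of 11 tested in Ter119pos, 8 were higher and 1 lower in KO, where 24.8% of all genes were higher and 29.3% lower, with a median of 1.77, or 0.90 by library totals. One of the 8, mt-Rnr2 (0.81, edgeR adjusted p = 0.0444), did not have a higher share, at 101300 and 121900 CPM in KO against 114800 and 124600 in WT. The Y RNA gene Rny1 was at 33.0 and 29.1 CPM in Ter119pos KO against 1.81 and 1.91 in Ter119pos WT (4.95, SE 0.262, edgeR adjusted p = 6.64e-08). Rny3 (4.73, adjusted p = 9.30e-08) and the vault RNA gene Vaultrc5 (4.31, adjusted p = 2.43e-07), both also made by RNA polymerase III, stood close to it. The small nuclear RNA genes Rnu11 and Rnu12 and the telomerase RNA Terc had higher shares in Ter119pos KO too. Rnu12 was at 162 and 147 CPM in KO against 105 and 60.6 in WT, and Terc at 48.3 and 49.9 CPM against 12.2 and 12.7. Malat1, a long nuclear RNA, fell, at 3320 and 2782 CPM in KO against 7952 and 7852 in WT (-0.49, edgeR adjusted p = 0.0412). A split by RNA polymerase was not tested. In Ter119neg 5 of 11 were higher and none lower, against 9.57% and 9.55% of all genes. They were Rny3 at 1.72, Rny1 at 1.59, Vaultrc5 at 1.23, Rnu12 at 1.19 and Rnu11 at 1.09. Terc, the telomerase RNA, had a KO effect 2.97 larger in Ter119pos than in Ter119neg (adjusted p = 1.5e-05), and Rny1 one of 3.36. Rnu6, n-R5s1 and Rn5s were at 0 in all 14 libraries.

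In LK cells the same RNAs took far smaller shares of the counts. The 7SL sum was at 2.35, 75.2 and 2.96 CPM in KO libraries A, B and C, against 1.80, 159 and 9.35 CPM in WT libraries A, B and C. Rn7sk was at 0.644, 40.1 and 1.83 CPM in KO, against 0.775, 74.0 and 4.48 CPM in WT. Both B libraries were high and all others low, so the genotypes overlapped and the letter, not the genotype, marked the high libraries. Rpph1 had 4, 78 and 2 counts in KO against 9, 171 and 7 in WT, and Rmrp 3, 138 and 3 counts in KO against 2.72, 140 and 3 in WT. A count of 0 allows up to 0.154 CPM at these depths. Y RNAs were listed at 0 in every LK library.

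No LK difference between KO and WT was called for the 3 RNA rows that passed the low count filter, Rn7s1, Rn7s2 and Rn7sk, where 1.82% of 13771 genes were called, and none had an unadjusted p under 0.05. DESeq2, which called 7.80% of genes, gave no p for Rn7s1 and Rn7sk and an adjusted p of 0.942 for Rn7s2. The log2 fold changes were -1.34 for the 7SL sum (SE 1.96, edgeR adjusted p = 0.764) and -1.15 for Rn7sk (SE 1.99, adjusted p = 0.799). By the low count filter Rpph1 and Rmrp were left out, and without it they stood at -1.43 (adjusted p = 0.688) and -0.28 (adjusted p = 0.967). Libraries of the same letter deviated together, which both B libraries alone can produce, so the letter is an assumed pairing. With the letter as replicate block the values were -1.07 for the sum (SE 0.345, edgeR adjusted p = 0.0638) and -1.08 for Rn7sk (SE 0.214, adjusted p = 0.0151). That fit called 22.7% of genes. The Rn7sk call was lost when the length trend was removed as well (-0.70, adjusted p = 0.0568). Without WT library B the sum and Rn7sk turned to 2.83 and 2.99, and without KO library B they stood at -5.33 and -5.32. None of the 9 SRP protein genes, 7 genes of 7SK and P-TEFb, 11 of RNase P and MRP proteins, 26 of RNA polymerase III and 5 other stable RNAs tested was called in LK without the block. At an unadjusted p under 0.05 these were 0, 2, 0, 2 and 1 in the same order, and DESeq2 called 0, 0, 0, 1 and 0. In the fit with the replicate block, the lists had 0, 1, 0, 2 and 0 genes higher and 0, 1, 1, 1 and 1 lower in KO. Granulocyte and monocyte markers summed to 7420 to 20330 CPM in LK KO and 25760 to 52790 CPM in LK WT, with 10 of 10 lower in that fit, and their part in these values was not tested.

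The split of the identical 7SL rows in LK shows what the counting did with them. Rn7s1 held 50%, 16.7% and 50% of the pair in KO libraries A, B and C, against 0%, 77.8% and 0% in WT libraries A, B and C. Its own value of -3.42 and the 0.38 of Rn7s2 (edgeR adjusted p = 0.545 and 0.929) therefore describe that split and not the amount of 7SL. Tissue, RNA kit and table all differ between LK and fetal liver, since LK RNA was column purified and fetal RNA taken up in Trizol, and Ribo-Zero is named in the protocol of the fetal libraries only. The LK protocol names a total RNA kit and does not say whether ribosomal RNA was removed or poly(A) RNA selected, and LK libraries A and C of both genotypes were 97.7% to 97.9% protein-coding counts. The gap between LK and fetal shares is thus given without a test, and these causes of it cannot be told apart. Small nuclear RNA rows were at most 0.00577% and small nucleolar RNA rows at most 0.00496% of counts in LK, so the low share was not particular to the 5.

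Rows other than the members hold part of the same sequence for all but Rmrp. All 251 windows of 50 bases of Rn7s1 occur in other rows, a count fixed in advance because the identical member Rn7s2 is among those rows. For Rn7sk 192 of 282 windows and for Rpph1 184 of 270 occur in other rows, while no window of Rmrp does. Rn7s6, another 7SL row, was at 57.1 and 63.6 CPM in Ter119pos KO, against 9.69 and 11.01 in Ter119pos WT, and Gm24447, which shares windows with Rn7sk, at 78.3 and 72.3 CPM in KO against 15.6 and 12.6 in WT. Ccnb1ip1, which holds the Rpph1 windows, was at 0 in 13 libraries and at 0.0476 CPM in Ter119pos WT library A. Each of these values is far under those of the member it shares sequence with. Ccdc107, on the other strand of Rmrp, was at 1.89 and 1.69 CPM in Ter119pos KO against 4.19 and 4.58 in Ter119pos WT, and the sources used here do not say whether reads were counted by strand.

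The genes with the most similar pattern were ranked by Pearson correlation of log2(CPM + 1) over the 14 libraries, among genes with a mean of at least 5 CPM. All points share the gap between LK and fetal liver, so high values are common and none is tested. For the 7SL sum the nearest was Rn7sk (r = 0.9997), followed by the histone genes Hist1h2bb (0.9952) and Hist1h2ab (0.9940). Rpph1 and Rmrp were nearest to each other (0.9991), followed by Hist1h3a (0.9977) for Rpph1 and the small nucleolar RNA Snora73b (0.9978) for Rmrp. The replication-dependent histone messages named here lack a poly(A) tail, a property they share with the 5 RNAs. The part of that property in the shared pattern was not tested.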

How the data were processed

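Libraries of 8 fetal liver and 6 LK samples came from a kit for stranded total RNA, per the labels' protocols, which name ribosomal RNA removal for fetal liver and neither that nor poly(A) selection for LK. The submitters' processing notes name STAR 2.5.3, RSEM and GRCm38 (mm10), and the sources used here give no RSEM version, annotation release or strand setting. The values deposited are RSEM expected counts of genes, in 2 tables of 45706 rows, of which 45143 have an identifier in GENCODE M21. Shares are percent of all expected counts of a library, and CPM is the same share times 1e+06.

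Expected counts were rounded. They were tested with the quasi-likelihood F test of edgeR 4.0.16 under R 4.3.3 (TMM, filterByExpr), with a mean per group, fetal libraries in 1 model and LK in another. Benjamini-Hochberg adjustment ran over all genes of a comparison, and genes were called under 0.05. The 7SL sum was tested in a table with both rows replaced by their sum. The script was tested on simulated data. The 7SL sequences and 1 erythroid marker are not reported here. Members, lists of related genes and tests were chosen with earlier results of these data known. Per list and comparison, up to 3 called genes of smallest p were to be named. Srpr, Malat1, mt-Rnr2, Rnu11, Rnu12, the Terc shares and single marker genes were added after their values were seen. So were the fourth gene of the 7SK difference of effects and genes at an unadjusted p under 0.05. Alternatives were RLE factors, library totals, library sizes without ribosomal RNA and members or from protein-coding genes, no filter and DESeq2 1.42.0. Further ones were letter and mouse blocks, a length trend (lowess of R, span 0.3), 2 groups only, and each library left out. The half-width of the exact 95% interval of a share was at most 1.2% of its value in fetal libraries and 22.9% in LK B libraries. These intervals cover counting error only, since reads are not independent molecules.

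LK libraries of the same letter deviated together from their group means (r of 0.604, 0.719 and 0.73). Fetal libraries of the same letter did not (0.00472 and -0.0288). In LK both B libraries stood apart and deviations within a group balance out, so the r of A and C cannot show pairing. The letter block in LK is thus an assumed pairing. Libraries of 1 mouse pair by origin.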

Additional observations from a re-analysis of the deposited data

Results flagged for a closer look

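The KO effect differed between Ter119pos and Ter119neg for each of the 5 rows, with Rn7s1 and Rn7s2 counted apart, by an interaction term in edgeR. With the newer dispersion estimate the call held for Rpph1 and Rmrp and was lost for the 7SL sum, Rn7s1, Rn7s2 and Rn7sk (adjusted p = 0.353, 0.183, 0.137 and 0.0803). The difference, in log2 units with Ter119pos minus Ter119neg, was 2.53 for the 7SL sum (2.49 for Rn7s1 and 2.57 for Rn7s2), 2.32 for Rn7sk, 3.68 for Rpph1 and 3.09 for Rmrp. In Ter119pos both KO libraries lay above both WT libraries by several fold, and in Ter119neg by less. No cause of the difference was tested.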

How the results depend on the processing

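In Ter119pos the direction of KO against WT and the call held for each of the 5 single rows, with Rn7s1 and Rn7s2 counted apart, in all 20 alternatives. The 7SL sum lost its call with the newer edgeR dispersion estimate (3.42, adjusted p = 0.0879), and so did the difference of effects (2.53) and the KO fraction comparison (2.05). In Ter119neg the 7SL sum became called by library totals (0.59), without a low count filter (0.86) and with DESeq2 (0.85), and lay between 0.56 and 1.24 with 1 library left out. Over all 20 alternatives the Ter119neg values ranged from 0.34 to 1.24 for the 7SL sum and from 0.22 to 1.11 for Rn7sk. The ranges were 0.17 to 1.03 for Rpph1 and 0.53 to 1.39 for Rmrp. With the replicate block Rn7s2 reached 0.93 (adjusted p = 0.0448), while no other member's fetal call changed in KO against WT. Fetal letters do not pair the libraries.

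In WT the fraction difference of the 7SL sum was called by library totals (-1.62), without a filter (-0.62), with DESeq2 (-0.45) and with the length trend removed (-0.76), and ranged from -0.83 to -0.15 with 1 library left out. Rn7sk ranged from -0.64 to 0.10. In KO library totals gave 0.32 for the sum, -0.10 for Rpph1 and -0.32 for Rmrp.

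In LK the 250 calls became 150 by library totals, 1074 with DESeq2, 486 with the length trend removed, 3129 with the replicate block, 3756 with both, 81 without both B libraries (chosen after seeing the data), and 37 to 280 with 1 library left out. There the sum ranged from -5.33 to 2.83, Rn7s1 from -5.91 to 10.55, Rn7s2 from -4.33 to 2.54 and Rn7sk from -5.32 to 2.99. Without both B libraries Rn7s1 stood at 8.25 and Rn7s2 at -2.12, and the replicate block gave -0.80 for Rn7s2, or -0.43 with the length trend removed. In Ter119neg 2976 calls became 1463 to 3168 with 1 library left out. The cause of these changes was not tested, except that leaving out libraries leaves fewer samples.

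As a share of counts without ribosomal RNA rows the 5 RNAs took 40.3% in Ter119pos KO, 7.04% in Ter119pos WT and 34.6% in Ter119neg KO. Per protein-coding count the values were 78.4%, 8.08% and 62.9%, and 34.3% in Ter119neg WT. In LK, Rpph1 or Rmrp rest on 2 to 4 counts in several libraries, although these are as deep as the fetal ones, so the small share and not the depth sets that limit.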
